A study of Gallus gallus with 10 samples.

Results

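The natural optic tectum (TeO) and the natural cerebral cortex (NCC) of chicken embryos were compared by RNA sequencing, library against library, on the chicken genes of the count table. The table lists 24881 chicken genes among 83183 genes of both species, and the comparison used 6 of the 10 deposited libraries, 3 of TeO and 3 of NCC. All libraries carry the genotype label WT, and the labels record no treatment of the embryos that gave TeO and NCC. Their age and sex, whether they carried a graft, and whether a library pooled several embryos are not given in the sources used here. The p-values thus set differences against the spread between these libraries, which need not be the spread between embryos. The other 4 libraries are of iTeO, an ectopic tectum that formed in the diencephalon of embryos after human neuroepithelial cells, derived from ES or iPS cells, had been implanted. They entered the fit only as an alternative and otherwise appear as levels.

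The optic tectum is the layered roof of the midbrain and receives the axons of retinal ganglion cells. It corresponds to the superior colliculus of mammals. The cerebral cortex belongs to the forebrain, and in birds most of its neurons lie in nuclei rather than in layers. The identity of each territory is set early in the neural tube by regional transcription factors and by signals from secondary organizers, and later differences include the kinds of neurons, their transmitters and receptors, and the share of glia. The files name genes by Ensembl identifier only. A RefSeq gene table matched 0 of these identifiers, so that known markers of midbrain, cortex, glia or blood were not analysed here and the dissection could not be checked against them. No gene role is therefore given, and genes are described by level, by the size of their difference and by how evenly the libraries showed it. Tissue was sequenced in bulk, and fewer cells of a kind and less RNA per cell cannot be told apart.

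Between 10893074 and 11591361 reads were counted on chicken genes in the TeO libraries and between 11081611 and 11615474 in the NCC libraries, so that depth was nearly equal. Levels are given as CPM, counts scaled to one common library total after TMM normalization. A level of 3 counts corresponded to between 0.259 and 0.278 CPM, depending on the library. At least 1 count was found for 19025 genes. A TeO library detected between 16952 and 17154 of them and an NCC library between 16722 and 16909, a difference of 260.7 genes with no overlap (two-sided exact permutation test, p = 0.1, the smallest p that 3 against 3 libraries allow). Counted at 1 CPM or more, the libraries overlapped, with 13129 to 13272 genes in TeO and 12976 to 13149 in NCC (two-sided exact permutation test, p = 0.2). At a level of 1 CPM or more in every library, 12709 genes were expressed in TeO, 12543 in NCC and 12175 in both. A further 534 genes met this level in every TeO library but not in every NCC library, and 368 genes did the reverse. At this level the repertoires of both regions thus overlapped for most genes.

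Of the 13539 chicken genes with enough counts to be tested, 1785 (13.2%) were called differentially expressed, with a Benjamini-Hochberg adjusted p-value under 0.05 in the quasi-likelihood test of edgeR and an absolute log2 fold change above 1. In TeO 951 genes (7.02%) were higher, and in NCC 834 genes (6.16%) were higher. The median log2 fold change, TeO over NCC, was 1.54 among the genes higher in TeO and -1.46 among the genes higher in NCC. Over all tested genes it was 0.01, close to 0. TMM normalization scales the libraries so that fold changes centre near 0, which also favours an even division of small differences. Without the limit on size, 6003 genes (44.3%) passed the adjusted p-value, almost evenly divided into 3007 higher in TeO and 2996 higher in NCC. Most of these differences were small. In 4218 of them the absolute log2 fold change was 1 or less. At the other end, 66 genes had an absolute log2 fold change above 1 and did not reach the adjusted p-value.

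Across tested genes the absolute log2 fold change had a median of 0.31, reached 0.64 at the 75th percentile, 1.20 at the 90th and 3.63 at the 99th. For 9549 genes (70.5%) the 95% interval of the log2 fold change lay between -1 and 1, and for 4825 genes (35.6%) it lay between -0.5 and 0.5. For the second group these libraries place the regional difference within the narrower of these limits. Among the called genes, the numbers fell steeply with size. Between log2 fold changes of 1 and 2 there were 655 genes higher in TeO and 606 higher in NCC, between 2 and 3 there were 180 in TeO and 132 in NCC, between 3 and 5 there were 75 in TeO and 72 in NCC, and past 5 there were 41 in TeO and 24 in NCC. Where a gene had no count in one tissue, the size of its fold change comes from the fit and is not measured. That holds for 12 genes higher in TeO and 4 higher in NCC, taken up below as on in one tissue. It also holds for some other genes higher in TeO, and the numbers past 5 include such genes. Testing directly against a log2 fold change of 1 with glmTreat left 952 genes.

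**Figure D1:**
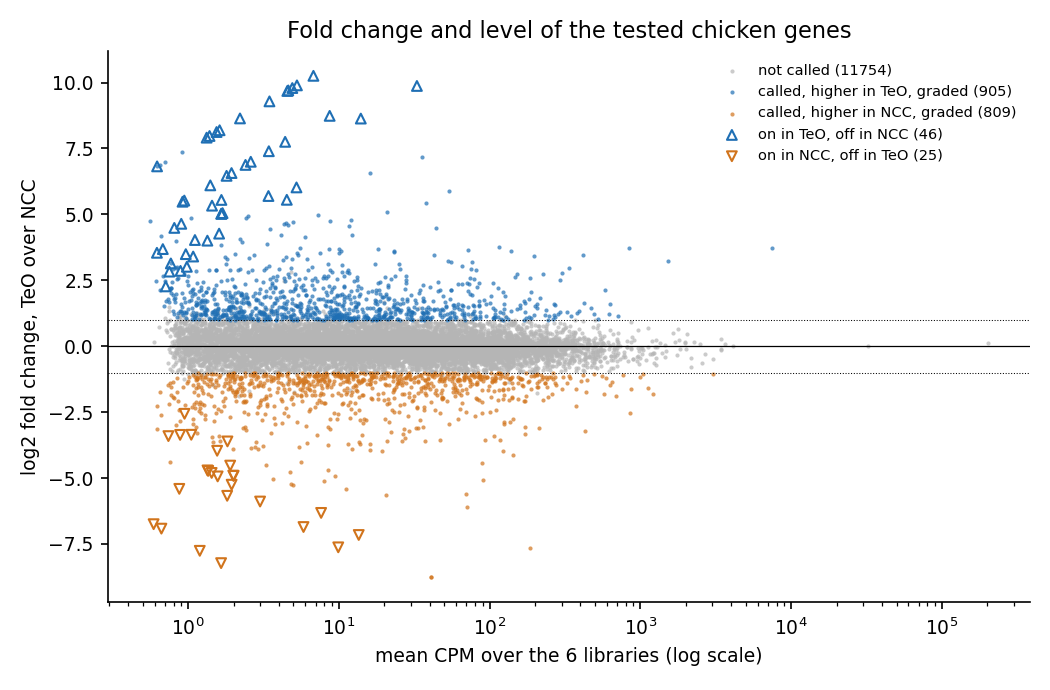
Log2 fold change, TeO over NCC, against the mean CPM over the 6 libraries (log axis) for the 13539 tested chicken genes. Small coloured points are called genes that differ by degree, triangles are the 46 genes on in TeO and the 25 on in NCC, and dotted lines mark log2 fold changes of 1 and -1. On/off genes lie at low mean levels, and a few strongly different genes beside them are graded.

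Genes that were on in one region and off in the other were counted apart from graded genes. A gene was taken as off when every library of a tissue had at most 3 counts, and as on when every library of the other tissue had at least 1 CPM. By this rule 46 genes were on in TeO and off in NCC, and 25 were on in NCC and off in TeO. All 71 were among the called genes, but because the rule uses the same counts as the test, this is no separate support. They were few and weakly expressed. The mean level in the tissue where they were on ranged from 1.15 to 65.8 CPM for TeO, with a median of 3.23, and from 1.18 to 26.9 CPM for NCC, with a median of 3.05. Only 14 genes on in TeO and 5 genes on in NCC reached 5 CPM in every library of that tissue.

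Summed over the 46 genes on in TeO, the level was 278.6, 314.2 and 286.9 CPM in TeO replicates 1, 2 and 3, against 3.11, 2.83 and 3.83 CPM in the NCC replicates. Summed over the 25 genes on in NCC, the level was 2.89, 2.31 and 2.85 CPM in TeO, against 131.7, 138.0 and 125.7 CPM in NCC. The gap between tissues in these sums is fixed by the way the genes were chosen, and the sums are given for their size and for the spread between libraries of the on tissue. In the off tissue, the 3 libraries together held a median of 2 counts per gene (at most 8) for the genes on in TeO, and a median of 3 (at most 9) for the genes on in NCC. No count at all in the off tissue was found for 12 of the genes on in TeO and 4 of those on in NCC. These genes were set against a floor of 3 counts over the 3 libraries of the off tissue, 0.0887 CPM. The mean TeO levels of the 12 were 14.0 to 153 times this floor. The mean NCC levels of the 4 were 13.3 to 37.3 times it. Error in the level of the on tissue is not included.

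**Figure D2:**
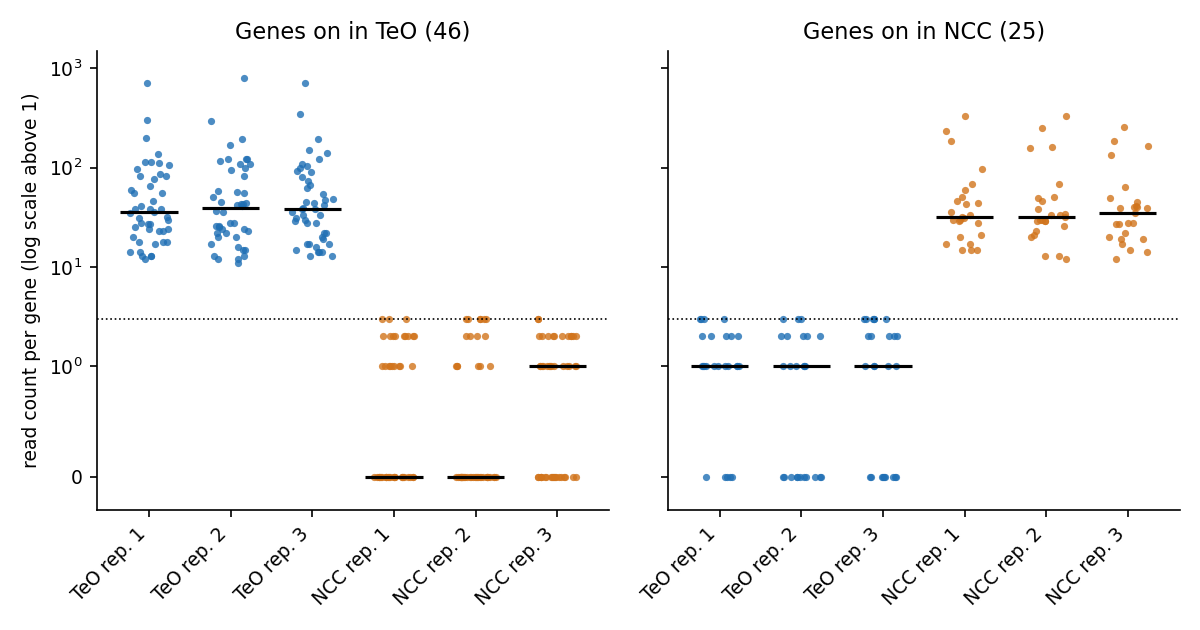
Read counts (vertical axis, logarithmic above 1) of the genes on in TeO (left) and on in NCC (right) in each library. Each point is a gene, black bars are medians over genes, and the dotted line is the limit of 3 counts, at or below which a gene was taken as off. The same genes sit above 10 counts in all 3 libraries of one tissue. In all 3 of the other they sit at 0 to 3 counts. Both follow from the rule for on and off.

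The strongest on/off gene in TeO was ENSGALG00000043204, a chicken gene that is listed by identifier only. It had 62.1, 73.5 and 61.8 CPM in TeO replicates 1, 2 and 3, from 710, 794 and 716 counts, against 0, 0 and 2 counts in the NCC replicates. Each TeO library therefore held at least 710 reads of it, and 2 of 3 NCC libraries held none. The ratio of the pooled counts was 1110, with a 95% counting interval of 307 to 9173, and the adjusted p-value was 7.47e-11 in the quasi-likelihood test of edgeR.

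The strongest on/off gene in NCC was ENSGALG00000006406. It had 3, 0 and 3 counts in the TeO replicates, against 329, 329 and 254 counts in the NCC replicates, which correspond to 28.5, 29.1 and 23.2 CPM. Its log2 fold change was -7.16 (standard error 0.30, adjusted p = 1.08e-09 in the same test of edgeR), and the groups were separated by a wide gap. Residual counts of this size in the off tissue are at the limit of what these depths resolve.

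The line between on/off and graded genes was set by a few reads. Past an absolute log2 fold change of 5 there were 21 graded genes, 9 higher in TeO and 12 higher in NCC, and several were more abundant than the strongest on/off gene of the same direction. The gene with the largest difference among them had 4, 1 and 1 counts in TeO, against 995, 925 and 858 counts in NCC. The next one had 5, 0 and 1 counts in TeO, against 898, 953 and 902 counts in NCC. Both missed the definition of off by 1 or 2 reads in TeO replicate 1 alone, and at means of 82.1 and 81.4 CPM in NCC they were about 3 times as abundant as the strongest gene that met it. Among the 9 genes higher in TeO, 4 had no count in NCC and failed the definition of on, because 1 TeO library lay just under 1 CPM.

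Levels in TeO were less even for the most abundant gene of these 21. It had 7, 3 and 51 counts in TeO replicates 1, 2 and 3, against 5618, 3162 and 3715 counts in NCC, or 368 ± 106 CPM (SD, n = 3). Thus TeO replicate 3 held most of its TeO reads, while even that library stayed far below every NCC library. Relaxing the limit for off to 10 counts raised the numbers to 176 genes on in TeO and 118 on in NCC, and requiring 0 counts lowered them to 12 in TeO and 4 in NCC. In each of these definitions more genes were on in TeO than in NCC, and the same held for limits of 0.5 and 5 CPM for on.

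Graded genes made up 1714 of the 1785 called genes, 905 higher in TeO and 809 higher in NCC, with a median absolute log2 fold change of 1.46. Of these, 1235 were expressed at 1 CPM or more in all 6 libraries and had no overlap between tissues, 613 higher in TeO and 622 higher in NCC. Such genes were detected at this level in both dissected tissues, and the difference was one of degree. As the dissection could not be checked, expression by cells of both regions was not tested. Differences past an absolute log2 fold change of 3 were still found for 26 of them in TeO and 36 in NCC.

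Among these genes of at least 1 CPM in all 6 libraries, the largest graded difference toward TeO was that of ENSGALG00000016680. It had 96.5, 110 and 110 CPM in the TeO replicates, against 2.51, 1.15 and 1.64 CPM in the NCC replicates, and the lowest TeO library lay far above the highest NCC library. The mean was 106 ± 7.88 CPM in TeO and 1.77 ± 0.69 CPM in NCC (SD, n = 3 each). Its log2 fold change was 5.89, with a standard error of 0.17 and an adjusted p of 2.79e-10 in the quasi-likelihood test of edgeR.

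Toward NCC the largest graded difference among genes of at least 1 CPM in all 6 libraries was that of ENSGALG00000008135. It had 2.54, 1.39 and 2.07 CPM in the TeO replicates, against 137, 145 and 135 CPM in the NCC replicates. The 3 libraries of each tissue lay close together compared with the distance between tissues. The log2 fold change was -6.10 (standard error 0.13, adjusted p = 2.49e-12 in the same test). With the normalization, tool, libraries in the fit or replicate block changed, or any library left out, each of the 4 genes named here stayed called in 10 of 10 alternatives, with fold changes in the same direction. The genes were picked for their level or difference in these same libraries, so this is no separate support. Other gene filters, glmTreat and shrinkage of fold changes were not among these alternatives.

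**Figure D3:**
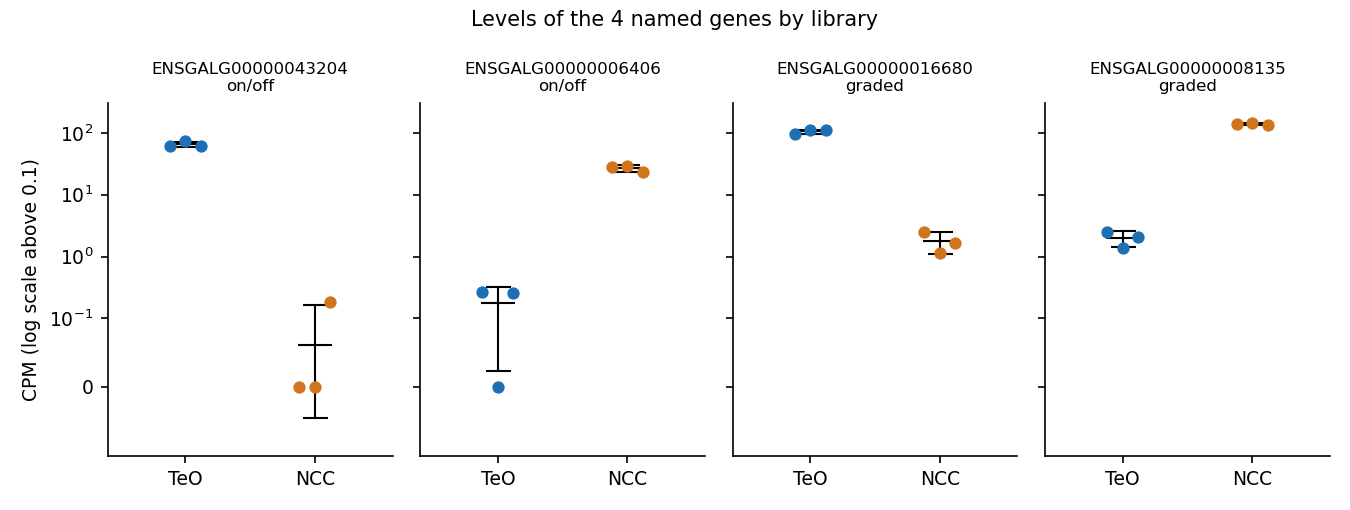
CPM (vertical axis, logarithmic above 0.1) of the on/off genes with the highest level in TeO and NCC and of the graded genes with the largest difference in each direction among those of at least 1 CPM in all 6 libraries. Coloured points are the 3 libraries of a tissue, and black marks are the mean and SD. The 4 genes were chosen by rules under which no TeO library can overlap an NCC library.

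Called genes were found at all levels, but the direction of the calls shifted with abundance. Genes were divided by their mean over the 6 libraries. The share of all tested genes higher in TeO was not counted by class. Whether uncalled genes shift alike was therefore not tested. Among 4760 tested genes of 1 to 10 CPM, 840 were called (485 toward TeO, 355 toward NCC), so that 57.7% of the calls were toward TeO. Among 6628 genes of 10 to 100 CPM, 649 were called (323 toward TeO, 326 toward NCC), an even division of 49.8%. Among 1799 genes of 100 to 1000 CPM, 195 were called (75 toward TeO, 120 toward NCC), and the share toward TeO was 38.5%. Genes called toward TeO were thus on the whole less abundant, with a median mean level of 6.97 CPM against 12.1 CPM for those called toward NCC and 17.9 CPM for all tested genes. Over the other fits tried, glmTreat included, the share toward TeO stayed between 56.4% and 58.2% in the lowest of these 3 classes, between 47.9% and 50.6% in the middle one and between 36.6% and 40.6% in the highest. The classes were kept from the main fit, and these fits share most libraries and calls with it, so this is no separate support.

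Precision improved with level. The median standard error of the log2 fold change was 0.23 for genes of 1 to 10 CPM, 0.10 for 10 to 100 CPM and 0.06 for 100 to 1000 CPM. The adjusted p-value was passed, whatever the size, by 33.2%, 47.3% and 64.4% of the genes in these classes, although the median absolute log2 fold change was 0.41, 0.26 and 0.27. In the lowest class a difference must be larger to pass the adjusted p-value. Within a tissue the coefficient of variation of CPM had a median of 16.5% in TeO and 17.2% in NCC for genes of 1 to 10 CPM, and of 4.05% in TeO and 4.90% in NCC for genes of 100 to 1000 CPM.

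**Figure D4:**
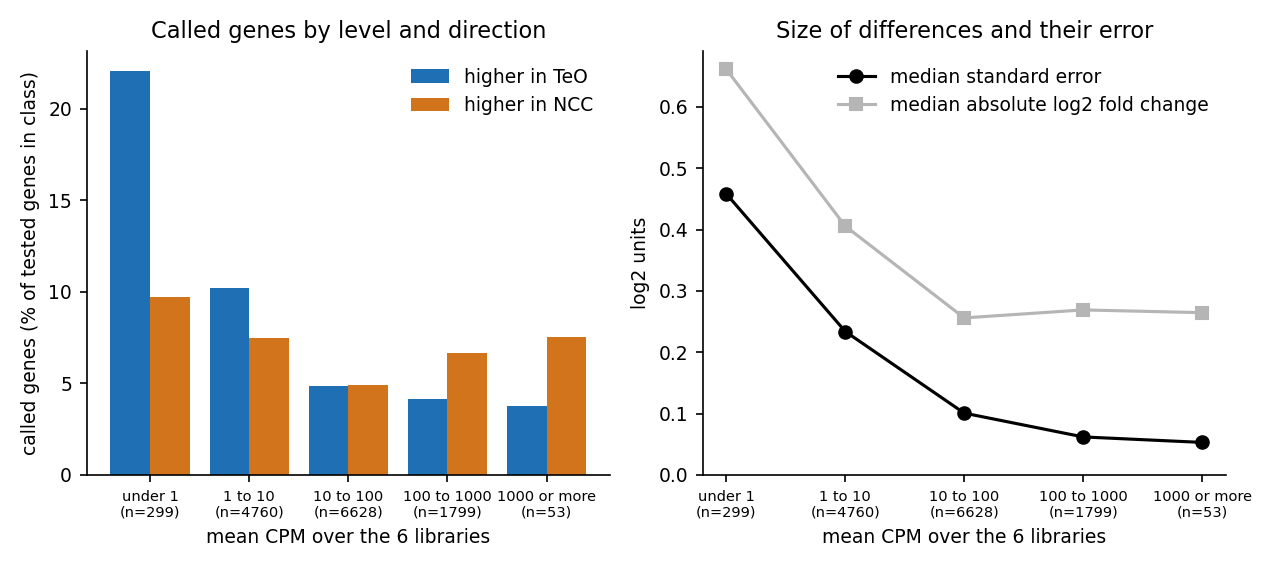
Left, called genes as a percentage of the tested genes in 5 classes of mean CPM, with genes higher in TeO and in NCC as separate bars. Right, the median standard error and the median absolute log2 fold change in the same classes, in log2 units. Calls toward TeO outnumber those toward NCC at 1 to 10 CPM and are outnumbered at 100 to 1000 CPM.

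By share of reads, called genes were a minor part of the RNA. The 951 genes higher in TeO took 6.13%, 6.37% and 6.28% of the chicken counts in TeO replicates 1, 2 and 3, against 1.59%, 1.57% and 1.68% in the NCC replicates. The 834 genes higher in NCC took 2.50%, 2.44% and 2.54% in TeO, against 7.11%, 7.30% and 6.75% in NCC. No library of one tissue came near those of the other in either share. The genes are called on these libraries, so the direction of these shares is given by the selection and only their size is informative. The 46 genes on in TeO held at most 0.0312% of a TeO library, and the 25 genes on in NCC at most 0.0138% of an NCC library. Among called genes, the difference in reads thus lay almost wholly in graded genes. By the rule used, these include genes that missed the limit for off by a few reads. Genes that passed the adjusted p-value without being called were not weighed here.

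The TeO share rested on fewer genes. In TeO, 25 of the 951 genes held 50% of their summed level, and in NCC 52 of the 834 did. A single gene made up 22.3% of the TeO sum. It was the third most abundant chicken gene in the table, with 13477, 15190 and 13128 CPM in the TeO replicates, against 1106, 767 and 1292 CPM in the NCC replicates. Its log2 fold change was 3.72, with a standard error of 0.24 and an adjusted p of 0.000345 in the quasi-likelihood test of edgeR. Next came a gene with 2783, 2828 and 2647 CPM in TeO, against 252, 274 and 353 CPM in NCC, and then one with 1505, 1658 and 1523 CPM in TeO, against 109, 105 and 143 CPM in NCC. No other gene called toward TeO had a mean above 1000 CPM there, and all 3 had log2 fold changes of 3.23 or more.

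Abundant genes higher in NCC were more numerous and differed less. Among the genes called toward NCC, 9 had a mean above 1000 CPM in that tissue. The first had 2081, 1869 and 1992 CPM in TeO, against 3937, 4313 and 4096 CPM in NCC, a log2 fold change of -1.05, just past the limit. The second had 547, 532 and 530 CPM in TeO, against 1771, 2080 and 1825 CPM in NCC, a log2 fold change of -1.82. The largest difference among these 9 was a log2 fold change of -2.53, for a gene with 262, 244 and 247 CPM in TeO and 1562, 1347 and 1433 CPM in NCC. In all these genes the 3 libraries of each tissue stayed apart from those of the other.

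The most abundant gene of both tissues did not pass the test. It had between 192367 and 222131 CPM in TeO and between 185009 and 203869 CPM in NCC, with overlap between tissues, and its log2 fold change was 0.13 (95% interval -0.01 to 0.26). This gene alone made up 21.1% ± 1.14 of the chicken counts in TeO and 19.2% ± 0.867 in NCC (SD, n = 3 each).

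Separation of the libraries was counted gene by gene. For 1775 of the 1785 called genes (99.4%) all 3 TeO libraries lay on one side of all 3 NCC libraries, and for 1783 the difference had the same direction in replicates 1, 2 and 3 compared number by number. Both counts follow largely from the call itself, which requires a spread that is small beside the difference. Among all tested genes 7311 (54.0%) had no overlap. Of these, 5536 were not called, and in 5522 of them the absolute log2 fold change was 1 or less. The 10 called genes with overlap had means of at most 5.94 CPM and absolute log2 fold changes of at most 1.46. A stricter view is the distance between the nearest TeO and NCC library. It exceeded 2-fold for 1069 called genes (59.9%), 559 higher in TeO and 510 higher in NCC, and 4-fold for 318.

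Within NCC, the libraries differed somewhat in the genes called between tissues. Of the 33 genes of at least 10 CPM called toward TeO with a log2 fold change above 3, NCC replicate 3 had the highest level of the NCC libraries in 23 (69.7%). Over all 8480 tested genes of this abundance it was the highest in 29.7%. Of all 450 genes of at least 10 CPM called toward NCC, it was the highest in 15.1%, while NCC replicate 2 was in 49.6%. At the same limit, NCC replicate 3 was the highest in 46.5% of all 400 genes called toward TeO. Of the 39 called toward NCC with a log2 fold change below -3, it was the highest in 5.1%, and NCC replicate 2 in 61.5%. The shift was small compared with the distance between tissues. For the 33 genes, the median ratio to the NCC mean was 1.22 in NCC replicate 3, against 0.92 and 0.91 in replicates 1 and 2. Libraries of TeO were uneven too. Over the 33 genes TeO replicate 2 was the highest TeO library in 51.5%, against 31.6% of all tested genes of this abundance, with a median ratio to the TeO mean of 1.04. In wider sets the excess was small. The share of TeO replicate 2 was 35.4% of the 96 genes called toward TeO past a log2 fold change of 2. It was 34.8% of all 400 called toward TeO. Over the 450 genes TeO replicate 1 was the highest in 40.9%, against 35.5% of all. What sets these libraries apart was not tested. Without NCC replicate 3, 1913 genes were called, the largest number when any 1 library was left out.

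**Figure D5:**
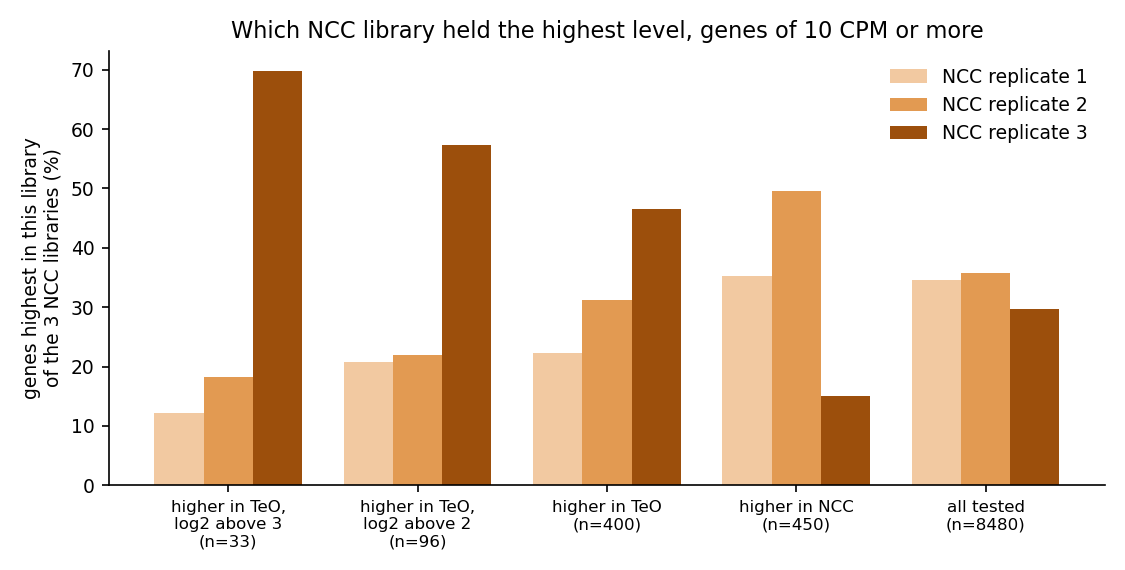
For tested genes with a mean of at least 10 CPM, the percentage in which each NCC library had the highest level of the 3 NCC libraries, by set of genes. NCC replicate 3 is the highest in 69.7% of the genes most strongly called toward TeO and in 46.5% of all called toward TeO. It is the highest in 15.1% of those called toward NCC and in 29.7% of all tested genes.

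A separate set of 24 genes was on in some libraries and off in others of the same tissue, with at most 3 counts in one library and at least 5 CPM in another. Its summed level was 7.70, 811 and 830 CPM in TeO replicates 1, 2 and 3, against 4.32, 1.33 and 839 CPM in the NCC replicates. High sums were found in 2 TeO libraries, replicates 2 and 3, and in 1 NCC library, replicate 3. Whether this is related to the uneven levels of single libraries described above was not tested. A test between tissues says little of genes chosen for their spread within one, and none is given. Fitting without them, an alternative chosen after the data were seen, called 1788 genes in place of 1785.

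Levels in iTeO are given for the on/off genes, which were chosen without those libraries. Of the 46 genes on in TeO, 31 had at least 1 CPM in all 4 iTeO libraries and 0 were at or below 3 counts in all 4. The remaining 15 met neither limit. Of the 25 genes on in NCC, 0 had at least 1 CPM in all 4 iTeO libraries and 10 were at or below 3 counts in all 4. Here too 15 met neither limit. The same shares were not counted over all genes expressed in TeO or in NCC, so likeness of iTeO to either tissue was not tested. ENSGALG00000043204 had between 45.6 and 82.8 CPM over the iTeO libraries, and ENSGALG00000006406 had at most 3 counts in any of them. The graded gene ENSGALG00000016680 had between 111 and 201 CPM in iTeO, and ENSGALG00000008135 between 2.05 and 3.82 CPM. For these 4 genes the iTeO libraries thus lay on the TeO side of the difference.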

How the data were processed

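The authors deposited unnormalized counts, 1 row for each gene. Total RNA libraries were made with a stranded kit. According to the methods and the labels' processing notes, the authors trimmed single-end reads with Trimmomatic, aligned them with STAR 2.7.1a to joined human (GRCh38) and chicken (galGal5) genomes, and counted unique alignments with featureCounts. Reads matching both genomes equally well were dropped. Differences between genes in length are not corrected, so levels were compared between libraries and ranked by counts only.

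Samples were grouped by their titles. The chicken rows of the 3 TeO and 3 NCC libraries were fitted in R 4.3.3 with edgeR 4.0.16 (TMM, filterByExpr by tissue, robust quasi-likelihood fit) without the iTeO libraries. Genes were called at an adjusted p-value (Benjamini-Hochberg) under 0.05 together with a log2 fold change beyond 1 or -1. The standard error is the log2 fold change over the square root of F. CPM used TMM-scaled totals, and iTeO levels came from TMM over all 10 libraries. Intervals of log2 fold changes come from the quasi-likelihood fit and include the spread between libraries, while the interval of a count ratio and the floors cover counting error only. Replicates were not copies, with a chi-square of 3.97 to 6.23 per degree of freedom. The procedure was tested on simulated data. It called 90% of 100 genes changed by 1.5 log2 units and 98% of 100 changed by 3, with 6 false calls among 194. Genes were drawn independently, so shifts that many genes of a library share were not simulated.

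Named genes were, in each direction, the on/off gene of highest level and the graded gene of largest change with at least 1 CPM everywhere and no overlap. Other genes, given without identifier, were picked for rank after their values were seen, as was the comparison of single NCC libraries. The comparison, lists and thresholds were chosen with earlier results of these data known. Alternatives were DESeq2 1.42.0 with and without ashr 2.2.63, its size factors, other filters, glmTreat, all 10 libraries, a replicate block, other on and off limits, and each library left out.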

Additional observations from a re-analysis of the deposited data

How the results depend on the processing

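The count of called genes stayed within 1.5 times under DESeq2 (1710), DESeq2 with ashr (1405), its size factors (1786), no filter (2078), at least 10 counts in every library (1287) and all 10 libraries (1791). It fell to 952 with glmTreat, 495 higher in TeO and 457 higher in NCC, a test built to ask for more than the fold limit. Past an absolute log2 fold change of 2, the count was 524 (296 in TeO, 228 in NCC). This fell to 255 with glmTreat (136 in TeO, 119 in NCC) and to 250 with at least 10 counts in every library (133 in TeO, 117 in NCC), a filter that removes genes off in a tissue. On/off counts depended on the definition: 12 on in TeO and 4 on in NCC with off at 0 counts, 176 and 118 with off at 10 counts or fewer, 89 and 59 with on at 0.5 CPM, and 14 and 5 with on at 5 CPM. Omitting single libraries gave 1777 to 1913 called genes (937 to 1027 in TeO, 826 to 886 in NCC), between 545 and 598 past a log2 fold change of 2 (301 to 350 in TeO, 231 to 266 in NCC), and between 53 and 59 genes were on in TeO and between 29 and 35 on in NCC. As the on/off rule asks every library, leaving 1 out can only keep or raise the on/off counts. The filter also let more genes be tested with 1 library out, 13764 to 13808 in place of 13539. With the replicate block, 1797 genes were called, 1770 of them also called without it. Deviations from the tissue mean correlated at 0.36, -0.27 and 0.37 between same-numbered TeO and NCC replicates 1, 2 and 3. Between replicates of unlike number the correlations ran from -0.56 to 0.37. Correlations were 0.35 to 0.37 where both libraries had high or both had low sums over the 24 genes described above, and negative otherwise. Libraries numbered 2 were unlike, with sums of 811 CPM in TeO replicate 2 and 1.33 CPM in NCC replicate 2. Whether same-numbered libraries share an embryo was not tested. The main on/off counts cover genes of at least 1 CPM in the on tissue, a limit that was chosen. At these depths 3 counts, the limit for off, corresponded to 0.259 to 0.278 CPM. Genes near that level cannot be told on from off.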
